A study of Arabidopsis thaliana with 6 samples.

Results

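Receptor-like proteins (RLPs) are plant cell-surface receptors with leucine-rich repeats outside the cell, a single membrane helix and a short tail inside that lacks a kinase. The members taken here are the Arabidopsis thaliana genes of the numbered series RLP1 to RLP57 that have a locus in the list used, 54 in all, chosen by family membership and not by any count. Of these 54, 50 had a row among the 26800 gene rows used, and 48 were tested among 22818 genes. The family was put forward with the differences between these libraries already known, so its counts and medians below describe it and support nothing.

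With no kinase of their own, RLPs of immunity are bound to the adaptor kinase SOBIR1 and recruit BAK1 or another SERK co-receptor when a microbial ligand arrives. The signal then passes to cytoplasmic kinases of the PBL family and, for several RLPs, to the EDS1, PAD4 and ADR1 module. A smaller number of RLPs work in development: CLV2 in meristem size, TMM in the spacing of stomata and RLP44 in the reading of the cell wall.

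Whole seedlings were harvested after 12 days at 22 °C in light of 100 µmol per square metre a second, on half-strength MS medium that held 1% sucrose and 1% agar. Of the 6 libraries, 3 are labelled vih1vih2, a double mutant in the genes of VIH1 and VIH2, kinases that make the inositol pyrophosphate InsP8, and the other 3 are labelled WT, of the Col-0 accession. Both groups had the same growth regime, no treatment was added, and the sources used here give neither the mutant alleles nor whether replicates were grown apart. The p-values therefore measure the spread between these libraries, which may be technical.

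Total counts were 47894376 to 52902600 in the libraries labelled vih1vih2 and 42697387 to 64410871 in those labelled WT, so that 1 count was worth 0.0165 to 0.0245 CPM, the count scaled to the depth of its library. Neither targeted gene was lower in the double mutant by label. VIH2 had 33783, 35310 and 38660 counts in the libraries labelled vih1vih2, against 2759, 2783 and 2310 in those labelled WT, and VIH1 averaged 31.8 ± 2.10 CPM in libraries labelled vih1vih2 against 6.39 ± 1.24 CPM in those labelled WT. A gene count cannot tell an intact transcript from a broken one, and the groups are named by their labels throughout. The label of whole seedlings was met by markers of shoot and root in both groups. The small subunit of Rubisco RBCS1A averaged 4827 ± 45.2 CPM in libraries labelled vih1vih2 and 6226 ± 70.2 CPM in those labelled WT, and the endodermal gene CASP1 averaged 13.5 ± 0.507 CPM in libraries labelled vih1vih2 and 36.3 ± 1.82 CPM in those labelled WT. Both shoot markers fell, RBCS1A with a log2 fold change of −0.37 and the light-harvesting gene LHCB1.3 with −1.50. Of the 4 root markers, CASP1 (−1.43) and COBL9 (−0.65) fell, while SCR (0.68) and EXP7 (0.48) were not called, and their median was −0.08. In bulk samples fewer cells of a type and less RNA per cell cannot be told apart. The part of tissue makeup in the values below was not tested.

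Each level below is in CPM scaled by the trimmed mean of M-values (TMM), given per library in the order of replicates 1, 2 and 3, or as a mean ± SD of n = 3. Each log2 fold change is vih1vih2 over WT, ± its standard error. A gene "rose" or "fell" where the adjusted p was under 0.05 in a quasi-likelihood fit by edgeR, with Benjamini-Hochberg correction over all 22818 genes.

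Most RLPs with a call rose. Of the 48 members tested, 28 rose, 4 fell and 16 did not pass the test. Over all genes tested, 21.4% rose and 19.4% fell, 40.9% in either direction. At least 2-fold rises were called in 21 members and at least 2-fold falls in 0, where 11.3% and 7.43% of all genes passed those limits. The median log2 fold change of the 48 members was 0.91, beside −0.0020 over all genes. All 3 libraries labelled vih1vih2 lay above all 3 labelled WT for 30 members and below them for 7, and the groups overlapped for 11. Among all genes those shares were 28.9% above and 27.5% below.

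**Figure D1:**
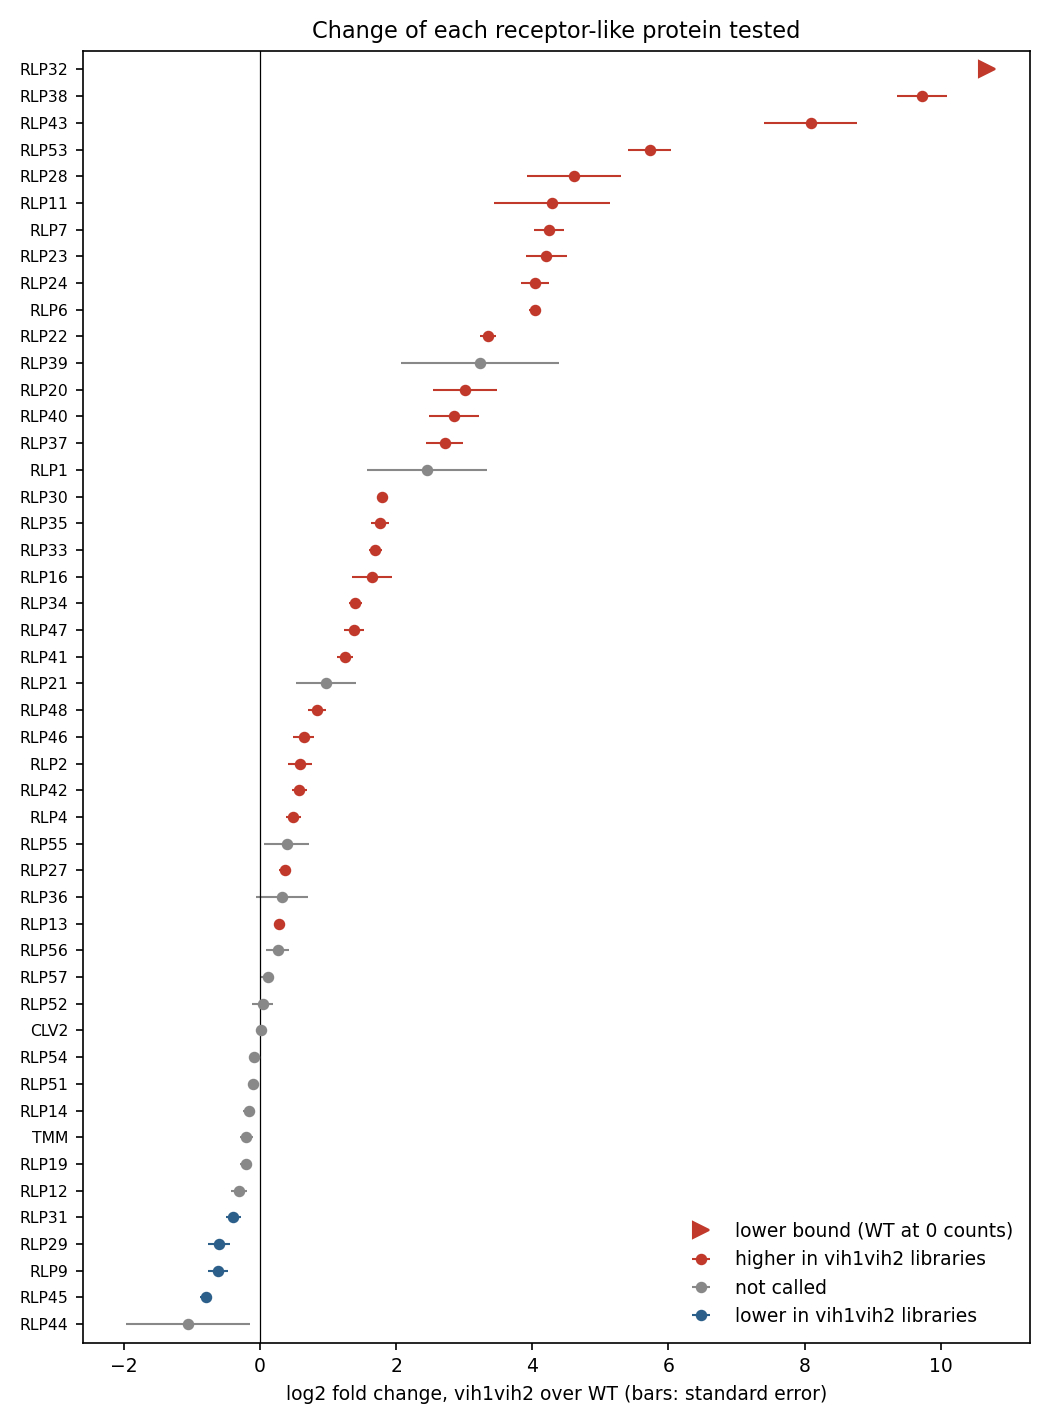
The log2 fold change (vih1vih2 over WT) of each of the 48 receptor-like proteins tested is drawn as a point, with a bar for its standard error, and coloured by its call. RLP32 is drawn as a lower bound, since the libraries labelled WT held 0 counts, and the called falls end at −0.79 for RLP45.

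Summed over the 50 members with a row, RLP transcripts took 905 ± 7.38 CPM in the libraries labelled vih1vih2 and 495 ± 9.03 CPM in those labelled WT. Much of the added signal came from few loci. Of the difference of 410 CPM, 211 CPM lay in 5 members, RLP53, RLP22, RLP43, RLP40 and RLP32. Of the members tested, 13 averaged under 1 CPM in the libraries labelled WT, and 7 of those 13 averaged over 10 CPM in the libraries labelled vih1vih2. The like share over all genes was not counted, so whether this is particular to RLPs was not tested. Only through the libraries labelled vih1vih2 did RLP11, RLP28, RLP32, RLP38, RLP39 and RLP43 pass the filter on low counts. That makes 6 of the 48 members, beside 1597 of the 22818 genes tested, and for these a difference follows from the filter. RLP32, RLP38 and RLP43 are also among the 7.

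For each of the 5 RLPs with a known microbial ligand, the libraries labelled vih1vih2 lay above those labelled WT. Among all genes 28.9% lay so. Of these 5, 4 were called higher, where 21.4% of all genes rose and 19.4% fell. The 4 include RLP32, whose call and lack of overlap follow from the filter. RLP32 (AT3G05650), the receptor of bacterial translation initiation factor 1, had 1810, 1691 and 1804 counts in the libraries labelled vih1vih2 and 0, 0 and 0 in those labelled WT. Set against 3 counts over the whole group labelled WT, that is at least 1636-fold higher. Its place among the tested genes came from the libraries labelled vih1vih2, so the value is a description and its p is not given. The bound covers counting error only, and the locus (TAIR10.1 chromosome 3, bases 1644882 to 1648742, minus strand) is overlapped over 8.34% of its 50-base stretches by the antisense locus AT3G01675, which had no row.

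RLP23 (AT2G32680), which perceives the nlp20 peptide of necrosis-inducing proteins from bacteria, fungi and oomycetes, stood at 11.1, 8.29 and 10.9 CPM in the libraries labelled vih1vih2 and at 0.579, 0.344 and 0.711 CPM in those labelled WT. Its log2 fold change was 4.21 ± 0.31, and the groups were far apart, with the WT values all under 1 CPM. RLP30 (AT3G05360), needed for the response to a Sclerotinia elicitor, held 42.2, 43.1 and 43.8 CPM in the libraries labelled vih1vih2 and 11.8, 13.2 and 12.3 CPM in those labelled WT. Each group was tight and the groups did not overlap, which gave a log2 fold change of 1.79 ± 0.07. RLP42 (AT3G25020), which senses fungal endopolygalacturonases, had 18.8, 21.1 and 21.4 CPM in the libraries labelled vih1vih2 and 12.3, 14.4 and 14.5 CPM in those labelled WT. The lowest library labelled vih1vih2 exceeded the highest labelled WT, and the log2 fold change was 0.58 ± 0.11. In the edgeR quasi-likelihood fit (Benjamini-Hochberg) the adjusted p was 0.000318 for RLP23, 4.32e-05 for RLP30 and 0.00907 for RLP42, and all 3 stayed called whichever library was left out. RLP42 shares 28.19% of its 50-base stretches with RLP40, so counts of that pair could be split between them.

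RLP1 (AT1G07390), known as ReMAX for its response to a Xanthomonas preparation, was the ligand receptor that did not pass the test. It had 24.8, 25.3 and 24.5 CPM in the libraries labelled vih1vih2, and 0.529, 7.62 and 5.44 CPM in those labelled WT. The groups did not overlap, but replicate 1 labelled WT lay far under the other two, and the log2 fold change was 2.46 ± 0.88, which missed the threshold at an adjusted p of 0.076 in the edgeR quasi-likelihood fit (Benjamini-Hochberg). Without that library it was 1.93, with an adjusted p of 0.00275, where adjusted p over all alternatives ran from 0.00275 to 0.152.

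**Figure D2:**
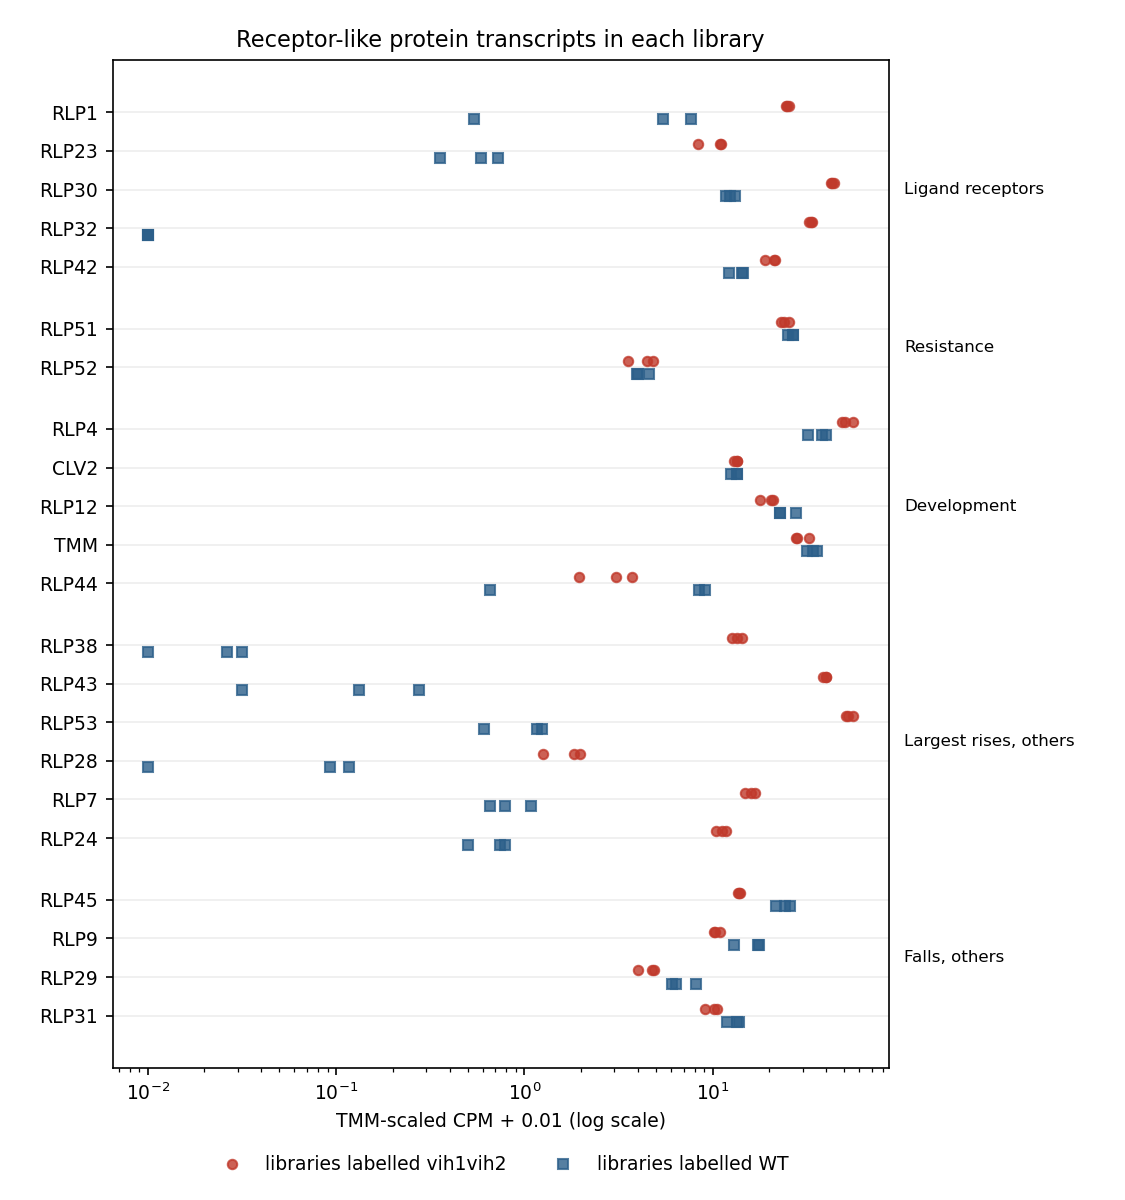
Levels of 22 receptor-like proteins are drawn on a log axis as TMM-scaled CPM + 0.01, with a circle for each library labelled vih1vih2 and a square for each labelled WT, grouped by role and by direction. RLP32 sits at the left edge in the libraries labelled WT (0 counts), CLV2 and RLP52 overlap between the groups, and replicate 1 labelled WT stands apart for RLP1 and RLP44.

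The RLPs known from resistance genetics, of which 2 were tested, showed no called change, where 40.9% of all genes were called in either direction. RLP51 (AT4G18760), also called SNC2, for which a gain-of-function allele gives constant defence, had 25.5, 23.1 and 23.9 CPM in the libraries labelled vih1vih2 and 26.7, 26.5 and 25.0 CPM in those labelled WT. The ranges overlapped, and the log2 fold change was −0.11 ± 0.07. RLP52 (AT5G25910), linked to resistance against powdery mildew, stood at 4.48, 4.81 and 3.54 CPM in the libraries labelled vih1vih2 and at 3.95, 3.98 and 4.56 CPM in those labelled WT, with a log2 fold change of 0.04 ± 0.15. Its groups overlapped as well. The adjusted p was 0.287 for RLP51 and 0.87 for RLP52 in the edgeR quasi-likelihood fit (Benjamini-Hochberg). The remaining member of this kind, RLP3, which underlies resistance to Fusarium oxysporum as RFO2, had no row and is described with the overlapping loci.

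Among the 5 members of development and the cell wall, RLP4 rose and the other 4 did not pass the test. Over all genes 21.4% rose and 19.4% fell, and 1 of 5 lies near the share that rose. RLP4 (AT1G28340) had 48.4, 55.4 and 50.6 CPM in the libraries labelled vih1vih2, above the 37.8, 32.1 and 39.9 CPM of those labelled WT. It rose by a log2 fold change of 0.49 ± 0.11 at an adjusted p of 0.0155 in the edgeR quasi-likelihood fit (Benjamini-Hochberg), in groups that did not overlap. CLV2 (AT1G65380), the receptor-like protein that works with the pseudokinase CRN in reading CLE peptides, stood at 12.9, 13.5 and 13.5 CPM in the libraries labelled vih1vih2 and at 13.4, 12.5 and 13.4 CPM in those labelled WT. Its groups overlapped almost fully, with a log2 fold change of 0.01 ± 0.08.

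TMM (AT1G80080), the partner of the ERECTA family in stomatal patterning, had 28.0, 32.6 and 27.7 CPM in the libraries labelled vih1vih2 and 35.9, 31.6 and 33.8 CPM in those labelled WT. These ranges overlapped, at a log2 fold change of −0.20 ± 0.10. RLP12 (AT1G71400), which can stand in for CLV2 in the meristem when expressed there, had 20.8, 20.3 and 17.8 CPM in the libraries labelled vih1vih2, against 22.9, 27.6 and 22.6 CPM in those labelled WT. All 3 libraries labelled vih1vih2 lay below those labelled WT, yet at −0.31 ± 0.12 the difference did not pass. RLP44 (AT3G49750), which ties wall sensing to brassinosteroid and phytosulfokine receptors, had 3.04, 3.70 and 1.95 CPM in the libraries labelled vih1vih2 and 0.645, 8.39 and 9.09 CPM in those labelled WT. Replicate 1 labelled WT lay below every other library while the other two lay above, and the log2 fold change was −1.06 ± 0.91. Without that library RLP44 was called lower at −1.59, with an adjusted p of 0.0184 in the edgeR quasi-likelihood fit (Benjamini-Hochberg), where adjusted p over all alternatives ran from 0.0184 to 0.903.

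Outside the role groups, among members with a mean of at least 1 CPM in either group, the greatest rises were of RLP38, RLP43, RLP53, RLP28, RLP7 and RLP24, all with levels near or under 1 CPM in the libraries labelled WT. RLP38 (AT3G23120, chromosome 3, 8227222 to 8229619, minus strand) had 746, 638 and 764 counts in the libraries labelled vih1vih2 and 1, 1 and 0 counts in those labelled WT. The ratio of depth-scaled counts was 993, with an exact 95% interval of 275 to 8208 that covers counting error only. It leaves out the spread between libraries. RLP38 passed the filter only through the libraries labelled vih1vih2, so ratio and interval are a description and support no difference. RLP43 (AT3G28890, chromosome 3, 10895977 to 10898900, minus strand) held 39.9, 40.0 and 38.6 CPM in the libraries labelled vih1vih2 and 0.265, 0.0215 and 0.122 CPM in those labelled WT, a fold of means of 290. The group labelled vih1vih2 was tight for both genes. The log2 fold change of RLP43, 8.09 ± 0.68, became 9.10 without replicate 1 labelled WT, its highest library in that group.

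RLP53 (AT5G27060, chromosome 5, 9521978 to 9525478, minus strand) ranked 5 of 50 by level per length in the libraries labelled vih1vih2, with 55.8, 51.9 and 50.7 CPM, and had 1.16, 0.603 and 1.23 CPM in those labelled WT. Its log2 fold change was 5.73 ± 0.31. RLP7 (AT1G47890) stood at 16.8, 15.9 and 14.9 CPM in the libraries labelled vih1vih2 and at 0.777, 0.646 and 1.08 CPM in those labelled WT, a log2 fold change of 4.25 ± 0.22. RLP24 (AT2G33020) had 11.2, 11.7 and 10.4 CPM in the libraries labelled vih1vih2 and 0.777, 0.732 and 0.49 CPM in those labelled WT, a log2 fold change of 4.04 ± 0.21. None of these groups overlapped, and each group labelled WT lay far below. RLP28 (AT2G33080), the lowest of the 6 by level per length, had 1.24, 1.83 and 1.97 CPM in the libraries labelled vih1vih2 and 0.0827, 0.108 and 0 CPM in those labelled WT, at a fitted log2 fold change of 4.61 ± 0.69. In the edgeR quasi-likelihood fit (Benjamini-Hochberg), adjusted p was 0.000121 for RLP53, 0.000102 for RLP7 and 9.55e-05 for RLP24, and these 3 kept their call with each library left out. The 6 were picked as the largest called rises in these same libraries, so these p-values and kept calls describe them and add no support. RLP38, RLP43 and RLP28 passed the filter only through the libraries labelled vih1vih2, so their values are a description and no p is given.

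The other 17 risers spanned log2 fold changes of 0.29 to 4.29 and group means of 0.730 to 54.7 CPM in the libraries labelled vih1vih2, against 0.0382 to 24.4 CPM in those labelled WT. RLP22 (AT2G32660), the highest member by level per length in the libraries labelled vih1vih2, had 55.4, 51.9 and 56.7 CPM in the libraries labelled vih1vih2 and 5.56, 5.85 and 4.63 CPM in those labelled WT (log2 fold change 3.35 ± 0.12). RLP6 (AT1G45616) had 20.6, 21.8 and 21.2 CPM in the libraries labelled vih1vih2 and 1.31, 1.29 and 1.27 CPM in those labelled WT (4.03 ± 0.09). Both were chosen for naming after their values were seen. RLP37, RLP40, RLP20 and RLP11 rose with log2 fold changes between 2.71 and 4.29. RLP11 passed the filter only through the libraries labelled vih1vih2, so its value is a description. RLP16, RLP33, RLP34, RLP35, RLP41 and RLP47 rose with values between 1.25 and 1.76. The log2 fold change of RLP11 went to 5.98, and that of RLP20 to 3.64, without replicate 3 labelled WT, the highest library of that group for both genes. RLP16 and RLP47 carry the same counts as an overlapping locus, as given below. RLP48, RLP46, RLP2, RLP27 and RLP13 rose by less than 2-fold, at 0.84, 0.64, 0.59, 0.36 and 0.29. Of the 28 risers, 24 were called with each library left out, including RLP11, RLP28, RLP32, RLP38 and RLP43, whose calls follow from the filter. The exceptions were RLP2, called only without replicate 1 labelled vih1vih2, RLP13, called only without replicate 1 labelled WT, RLP46, called only without replicate 2 labelled vih1vih2 or replicate 1 labelled WT, and RLP27, not called without replicate 2 labelled WT.

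The 4 falls were smaller than 2-fold. RLP45 (AT3G53240) had 13.7, 13.7 and 13.9 CPM in the libraries labelled vih1vih2 and 21.7, 24.2 and 25.6 CPM in those labelled WT. It fell with a log2 fold change of −0.79 ± 0.09 and an adjusted p of 0.0015 in the edgeR quasi-likelihood fit (Benjamini-Hochberg), in groups that did not overlap, and stayed called whichever library was left out. RLP9 (AT1G58190) had 10.3, 10.2 and 10.9 CPM in the libraries labelled vih1vih2 and 12.9, 17.7 and 17.3 CPM in those labelled WT (−0.61 ± 0.14). RLP29 (AT2G42800) had 4.89, 3.998 and 4.74 CPM in the libraries labelled vih1vih2 and 8.17, 6.09 and 6.35 CPM in those labelled WT (−0.60 ± 0.16). RLP31 (AT3G05370) had 10.14, 10.5 and 9.11 CPM in the libraries labelled vih1vih2 and 13.5, 11.8 and 13.7 CPM in those labelled WT (−0.39 ± 0.11). In all 3 the groups did not overlap, but each was called in 1 of the 6 fits that left out a library. That fit was the one without replicate 1 labelled WT for RLP9 (log2 fold changes over the 6 from −0.74 to −0.54), and without replicate 2 labelled WT for RLP29 (−0.68 to −0.45) and RLP31 (−0.46 to −0.33).

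Of the 9 members outside the role groups that did not pass, RLP39 (AT3G24900) had the largest difference, with 2.27, 1.85 and 2.23 CPM in the libraries labelled vih1vih2 and 0.595, 0.0215 and 0 CPM in those labelled WT. Here too replicate 1 labelled WT stood apart from its group, on the high side. Its log2 fold change was 3.23 ± 1.16, and 7.25 without that library, a fit in which it was called. It passed the filter only through the libraries labelled vih1vih2, so no p is given. RLP54 (AT5G40170), the highest member by level per length in the libraries labelled WT, averaged 56.7 ± 2.91 CPM in the libraries labelled vih1vih2 and 60.4 ± 1.97 CPM in those labelled WT, a log2 fold change of −0.09 ± 0.06. RLP14, RLP19, RLP21, RLP36, RLP55, RLP56 and RLP57 lay between −0.21 and 0.97. RLP15 and RLP25 had too few counts to be tested, with 0 to 20 and 0 to 8 counts per library.

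The order of levels within the family differed between the groups when CPM was divided by the length of the spliced transcript. In the libraries labelled vih1vih2 the highest levels per kilobase were those of RLP22 at 21.0 ± 0.957, RLP4 at 20.9 ± 1.47 and RLP54 at 20.5 ± 1.05 CPM per kilobase, which lay within their spread of one another. RLP43, RLP53 and TMM followed at 16.3 ± 0.324, 16.2 ± 0.821 and 16.1 ± 1.498 CPM per kilobase, again within their spread. In the libraries labelled WT the order began with RLP54 at 21.8 ± 0.712 and TMM at 18.4 ± 1.19 CPM per kilobase, and RLP19, RLP4 and RLP51 came next at 15.2 ± 0.0906, 14.9 ± 1.64 and 14.6 ± 0.520 CPM per kilobase, within their spread. RLP22 ranked 22, RLP53 37, RLP43 45 and RLP32 50 of the 50 members there.

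**Figure D3:**
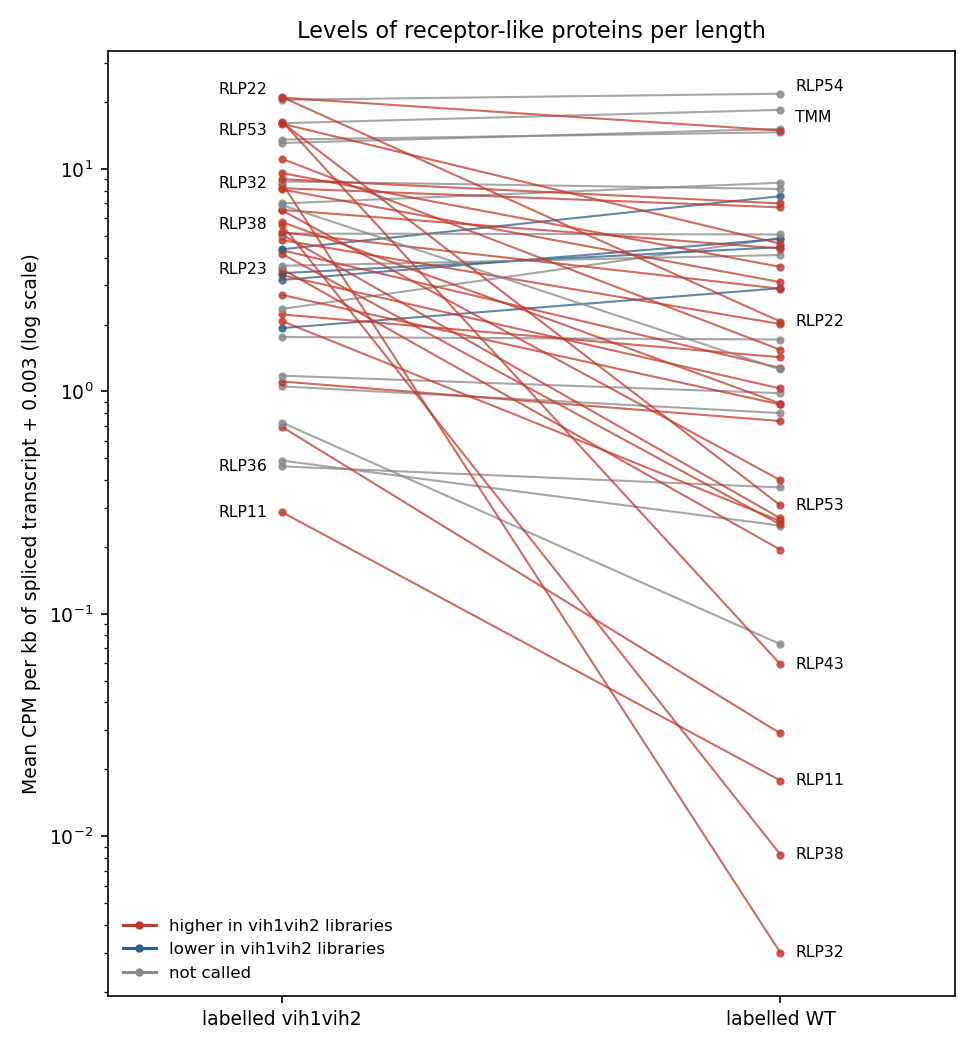
Mean levels of the 48 members tested are drawn per kilobase of spliced transcript on a log axis (CPM per kb + 0.003). A line coloured by call joins the mean in libraries labelled vih1vih2 at the left to that in libraries labelled WT at the right. Lines of RLP22, RLP53, RLP43, RLP38 and RLP32 slope steeply to the right, while RLP54 and TMM stay near the top in both groups.

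Many RLPs lie in tandem clusters, here taken as members with at most 3 other annotated genes between neighbours. The TAIR10.1 annotation gave 11 clusters with 28 members, the largest of 5 (RLP24 to RLP28 on chromosome 2). Of 22 clustered members tested, 17 rose and 1 fell, at a median of 2.25 on the log2 scale. Of 26 members standing alone, 11 rose and 3 fell, with a median of 0.36. Over all genes 21.4% rose and 19.4% fell. The clustered RLP11, RLP28, RLP32, RLP38 and RLP39 and the single RLP43 passed the filter only through the libraries labelled vih1vih2. Their differences follow from the filter and enter these counts and medians. Neighbours did not always share a direction. RLP30 rose beside RLP31, which fell, and RLP11 rose beside RLP12, which was not called. By chromosome, 7 of 13 tested members rose on chromosome 1, 6 of 9 on chromosome 2, 11 of 16 on chromosome 3, 3 of 4 on chromosome 4 and 1 of 6 on chromosome 5, where the riser was RLP53. Members of a cluster share descent and are not independent, so no test was made of these counts.

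**Figure D4:**
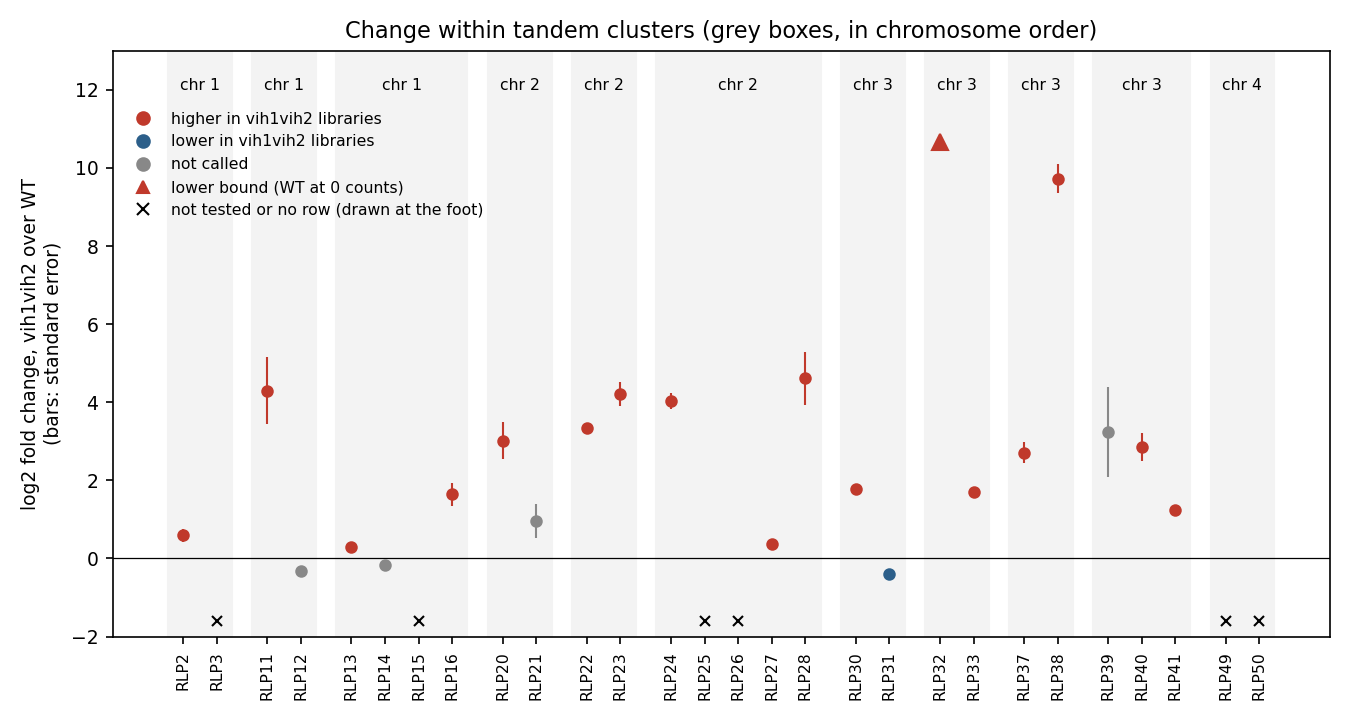
Log2 fold changes (vih1vih2 over WT, bars for the standard error) are drawn for the members of each tandem cluster, with a grey box for each cluster in chromosome order and crosses at the foot for members with no row or no test. RLP30 and RLP31 take opposite signs side by side, and every tested member of the boxes with RLP22, RLP24, RLP32 and RLP37 lies above 0.

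The 250 bases before the annotated gene start were read from the RefSeq TAIR10.1 genome, 5′ to 3′ on the strand of the gene, for 5 members: RLP23 and RLP28, RLP43 and RLP53, which are pairs of risers with the most alike windows, and CLV2, which was not called. Capitals mark a W-box (TTGACC or TTGACT, or its reverse complement), the core bound by WRKY transcription factors. The windows are chr2:13862615-13862864 (minus strand) for RLP23, chr2:14031748-14031997 (plus) for RLP28, chr3:10898901-10899150 (minus) for RLP43, chr5:9525479-9525728 (minus) for RLP53 and chr1:24286492-24286741 (plus) for CLV2.
RLP23: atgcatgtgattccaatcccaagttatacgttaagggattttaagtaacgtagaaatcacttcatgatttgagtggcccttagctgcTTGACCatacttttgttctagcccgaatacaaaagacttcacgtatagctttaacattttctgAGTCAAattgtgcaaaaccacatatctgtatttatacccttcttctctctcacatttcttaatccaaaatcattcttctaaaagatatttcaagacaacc
RLP28: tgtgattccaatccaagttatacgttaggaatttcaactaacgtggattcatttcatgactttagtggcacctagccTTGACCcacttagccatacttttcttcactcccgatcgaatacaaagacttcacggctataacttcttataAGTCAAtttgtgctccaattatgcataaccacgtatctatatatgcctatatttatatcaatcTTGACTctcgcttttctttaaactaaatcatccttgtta
RLP43: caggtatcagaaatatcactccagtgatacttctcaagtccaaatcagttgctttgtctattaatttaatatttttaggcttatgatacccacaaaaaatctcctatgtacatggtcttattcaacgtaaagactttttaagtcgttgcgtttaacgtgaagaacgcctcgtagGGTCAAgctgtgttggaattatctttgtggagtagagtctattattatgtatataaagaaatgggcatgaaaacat
RLP53: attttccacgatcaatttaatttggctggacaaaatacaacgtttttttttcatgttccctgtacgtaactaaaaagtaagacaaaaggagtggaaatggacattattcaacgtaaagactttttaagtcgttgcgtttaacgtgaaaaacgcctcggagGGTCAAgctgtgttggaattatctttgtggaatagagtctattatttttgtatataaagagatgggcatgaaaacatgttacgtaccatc
CLV2: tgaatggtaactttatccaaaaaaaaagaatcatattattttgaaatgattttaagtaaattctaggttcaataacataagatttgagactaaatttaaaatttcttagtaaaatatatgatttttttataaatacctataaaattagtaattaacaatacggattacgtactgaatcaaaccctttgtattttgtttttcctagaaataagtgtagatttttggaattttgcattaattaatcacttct

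These windows of RLP43 and RLP53, on different chromosomes, were 68.0% identical in a global alignment and each held 1 W-box within the same stretch, beginning 76 bases before the start of RLP43 and 90 before that of RLP53. RLP23 and RLP28 were 65.9% identical, with 2 W-boxes in RLP23 and 3 in RLP28. Over all 1431 pairs of members the median identity was 47.8%, and 6 pairs exceeded 60%, a limit set after the values were seen. These 6 were RLP39 with RLP41 at 71.0%, RLP43 with RLP53, RLP23 with RLP28, RLP20 with RLP23 at 63.3%, RLP20 with RLP28 at 61.7% and RLP41 with RLP42 at 61.5%. Both genes of the pair rose in each case except that of RLP39, which was not called. The pairs share members and descent, and a like sequence is a description and not a cause.

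A W-box on either strand stood in the window of 27 of 54 members (50%), against 28.4% of 27443 protein-coding genes of TAIR10.1. The share was 14 of 28 (50%) among risers, 1 of 4 (25.0%) among those that fell and 8 of 16 (50%) among those not called, which is the same share in risers and in members without a call. P1BS (GNATATNC on either strand), bound by phosphate-starvation regulators of the PHR family, was found in 2 members (3.7%) against 5.46% of protein-coding genes, and in 0 of the 28 risers. The G-box CACGTG stood in 1 member (1.85%) against 6.49% of protein-coding genes. None of these motifs contains another, and absence from these windows says only that the letters are not there.

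The adaptors and co-receptors of immune RLPs were partly higher as well: of 21 listed genes of this machinery, all tested, 10 rose, 2 fell and 9 did not pass, with a median log2 fold change of 0.68, where 21.4% of all genes rose and 19.4% fell. SOBIR1, the adaptor kinase bound to most immune RLPs, had 138, 135 and 135 CPM in the libraries labelled vih1vih2 and 57.5, 58.9 and 63.8 CPM in those labelled WT. The groups were far apart, with a log2 fold change of 1.18 ± 0.06 at an adjusted p of 9.22e-05 in the edgeR quasi-likelihood fit (Benjamini-Hochberg). BDA1, an ankyrin-repeat protein that acts downstream of RLP51, averaged 3.32 ± 0.768 CPM in the libraries labelled vih1vih2. In those labelled WT it averaged 0.110 ± 0.0377 CPM, a fitted log2 fold change of 4.85 ± 0.33. BDA1 passed the filter only through the libraries labelled vih1vih2, so its value is a description, although it is counted among the 10 that rose. RLP51 itself did not pass the test. WRKY70, a transcription factor of the same branch, had a log2 fold change of −0.12 ± 0.19 and was not called.

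The helper receptor ADR1 averaged 71.8 ± 2.61 CPM in the libraries labelled vih1vih2 and 9.97 ± 0.757 CPM in those labelled WT (2.85 ± 0.08). Its paralogue ADR1-L2 rose at 0.68 ± 0.05, and ADR1-L1 rose at 1.10 ± 0.32 but was called only without replicate 1 or replicate 3 labelled WT. PAD4 and SAG101, which pair with EDS1, rose at 0.81 ± 0.08 and 1.29 ± 0.12, whereas EDS1 fell at −0.25 ± 0.07, a call that held only without replicate 3 labelled vih1vih2. The cytoplasmic kinase BIK1 rose at 0.99 ± 0.08, the kinase BIR1, which restrains SOBIR1-dependent defence, at 0.74 ± 0.05, and PBL31, which acts after RLP23, at 0.39 ± 0.09, lost without replicate 3 labelled vih1vih2. The map kinase MPK6 fell at −0.28 ± 0.07, a call that held only without replicate 2 labelled WT. For the co-receptor BAK1 there were 70.9, 67.5 and 69.7 CPM in the libraries labelled vih1vih2 and 55.7, 2.78 and 50.02 CPM in those labelled WT. Replicate 2 labelled WT lay far below the rest, and BAK1 was called only without it.

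Receptor kinases of immunity, which bind their ligands and carry a kinase themselves, gave 4 rises and 1 fall among 10 tested, with a median log2 fold change of 0.91. Over all genes 40.9% were called, and 5 of 10 lies near that share. EFR, the receptor of bacterial elongation factor Tu, rose at 1.04 ± 0.15, PEPR2 for Pep peptides at 1.31 ± 0.11, RLK7 at 1.00 ± 0.11 and the chitin receptor LYK5 at 0.98 ± 0.12. LYK4 fell at −0.33 ± 0.09, which held only without replicate 2 labelled vih1vih2. FLS2, the flagellin receptor, had 85.5, 71.4 and 4.63 CPM in the libraries labelled vih1vih2 and 41.1, 41.7 and 39.8 CPM in those labelled WT. Replicate 3 labelled vih1vih2 stood far below, and FLS2 was called only without it. The median also takes in PEPR1 (0.83 ± 0.63) and MIK2 (1.88 ± 0.68), which were not called. Their libraries labelled WT were uneven, at 49.1, 9.41 and 56.9 CPM for PEPR1 and 104, 23.4 and 20.8 CPM for MIK2.

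Genes listed around the developmental RLPs moved in both directions. Among 7 listed genes around TMM, all tested, 3 rose and 2 fell (median 0.21), beside 21.4% and 19.4% of all genes. The receptor kinases ERL2 and ERL1 rose at 1.39 ± 0.09 and 0.78 ± 0.13, and the peptide EPF2, which limits entry into the stomatal lineage, at 0.94 ± 0.17. ER fell at −0.45 ± 0.13, a call kept only without replicate 2 labelled vih1vih2, and the protease SDD1 fell at −0.40 ± 0.09, a call lost without replicate 2 of either group. Of 9 markers of the stomatal lineage, in which TMM is expressed, SCRM2 (−1.04 ± 0.07) and MYB88 (−0.47 ± 0.12) fell and 7 did not pass, with a median of 0.23, and 2 of 9 lies near the 19.4% of all genes that fell. MYB88 was called only without replicate 1 labelled vih1vih2 or replicate 3 labelled WT. The part of lineage cell number in the level of TMM was not tested.

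Of 9 listed genes around CLV2, 6 were tested, of which CLV1, a CLE receptor kinase, fell at −0.31 ± 0.04 and stayed called whichever library was left out. The root niche gene WOX5 rose at 0.87 ± 0.22, called only without replicate 1 labelled vih1vih2 or replicate 2 labelled WT. CRN, the partner of CLV2, had 0.018, 9.71 and 0.075 CPM in the libraries labelled vih1vih2 and 14.7, 16.6 and 0.441 CPM in those labelled WT. Its libraries split within both groups, so no direction can be given. CLE40 had no row, and CLV3 and WUS had too few counts for a test. All 4 genes listed around RLP44 passed, where 40.9% of all genes were called in either direction. These are 2 receptors and 2 peptide precursors, listed with earlier results of these data known, so the count is a description. The phytosulfokine precursor PSK2 rose at 2.83 ± 0.36 and the receptor PSKR1 at 0.32 ± 0.06, while the precursor PSK4 fell at −3.04 ± 0.09 and the brassinosteroid receptor BRI1 at −0.35 ± 0.04.

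Several RLP loci overlap other annotated loci, and the strand setting of the counting is not given in the sources used here, so reads of overlapping genes could not be told apart. RLP16, RLP47 and RLP56 carried the same 6 counts as the sense loci AT1G74205, AT4G13800 and AT5G07355, and their values cannot be assigned to either. The members with no row RLP3, RLP26 and RLP50, lie wholly within the antisense loci AT1G17255, AT2G33051 and AT4G13918. AT1G17255 rose, with 675, 567 and 634 counts in the libraries labelled vih1vih2 and 487, 359 and 375 in those labelled WT (log2 fold change 0.50 ± 0.10). AT4G13918 had 8537, 254 and 7598 counts in the libraries labelled vih1vih2 and 5539, 4215 and 3818 in those labelled WT, with replicate 2 labelled vih1vih2 far below the rest. AT2G33051 showed the same library low, at 373 counts beside 2523 and 2736, against 2259, 1520 and 1487 counts in those labelled WT. Neither was called. RLP49 had no row and no such overlap. The riser RLP40 is covered over 89.36% by the antisense locus AT3G24929, which rose at 2.19 ± 0.33, and RLP46 over 96.11% by AT4G04221, which was not called at −0.07 ± 0.20. Sequence shared with another member or overlapping locus exceeded 5% of 50-base stretches in 16 members.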

How the data were processed

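Raw counts per gene identifier were deposited by the authors for 6 libraries made with a directional kit from whole seedlings, 3 labelled vih1vih2 and 3 labelled WT. Per the submitters' processing notes, StringTie 1.3.3b, STAR 2.5.3a and CASAVA 1.4 were used with the build TAIR10. Not given in the sources used here are the tool that made the counts, its strand setting and its annotation. Of 27080 rows, 280 with identifiers of 6 digits repeated the row of their first 5 digits and were left out. Pairs within a group differed by 117 to 143 in chi-square over degrees of freedom, so none was a copy.

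Counts were filtered with filterByExpr by group, scaled by TMM and tested with the quasi-likelihood method of edgeR 4.0.16 in R 4.3.3, and the model held only the group. A gene was called at an adjusted p under 0.05 (Benjamini-Hochberg over all genes tested). Standard errors are the size of the log2 fold change over the root of F. The fit was tested on simulated data. Members, gene lists and roles were chosen with earlier results of these data known. Values per library are given for members with a role and for the 6 largest called rises and up to 6 largest called falls among the others with a mean of at least 1 CPM, and members named outside that rule were chosen after their values were seen.

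Positions, transcript lengths and upstream windows came from RefSeq TAIR10.1, since the counts carry no coordinates, and promoter windows were aligned end to end. The alternatives were size factors and the Wald test of DESeq2 1.42.0, voom in limma 3.58.1, no filter, a minimum of 5 CPM in 3 libraries, plastid and mitochondrial genes removed, copied rows collapsed, the replicate number as a block, each library left out, a threshold of 0.01 and glmTreat against 1.5-fold. An alternative without the members that share sequence or counts was added after the data were seen. Plots used Python 3.11.15 with matplotlib 3.10.9.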

Additional observations from a re-analysis of the deposited data

How the results depend on the processing

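The count of 28 RLPs that rose was 24 to 29 with each library left out and stayed within 1.5 times of 28 under all other settings tried but one. The exception was 17 of 35, beside 28 of 48 in the main fit. Here the 13 members that share over 5% of their 50-base stretches or all 6 counts were left out. This rule does not use the call, yet all of the 13 but RLP39 and RLP56 were risers. Part of the count of 28 thus rests on members whose reads may be shared with another locus. Among the 28, the calls of RLP11, RLP28, RLP32, RLP38 and RLP43 follow from the filter. The count of 4 RLPs that fell was 1 to 3 with each library left out, 1 at a threshold of 0.01 and 1 with glmTreat against 1.5-fold. Replicate numbers did not pair the samples: the deviations of same-numbered libraries correlated at 0.031, −0.026 and −0.014, with 0.047 the highest of any pair. With the replicate block the RLPs that fell numbered 2 and the listed partner genes that fell numbered 3, and 7 members lost their call (RLP2, RLP4, RLP9, RLP13, RLP27, RLP31 and RLP46). Partner genes that rose, 20 in number, were 19 to 20 with each library left out and 13 with glmTreat. Those that fell, 8 in number, were 4 to 5 with each library left out, 3 at a threshold of 0.01 and 1 with glmTreat. Over all genes the 4891 that rose were 4130 to 4377 with each library left out, 3136 at 0.01 and 2452 with glmTreat, and the 4433 that fell were 3684 to 3775, 2623 and 1661. The DESeq2 Wald test added RLP1, RLP19 and RLP39, and limma-voom added RLP1 and RLP39 and lost RLP2. No member changed sign with a call on both sides. BAM2, at 0.01 and not called, ran from −0.44 (without replicate 3 labelled WT, adjusted p 0.02) to 0.34 with each library left out, and the cause was not tested. With 3 libraries a group, the calls of RLP1, RLP39, RLP44, BAK1 and FLS2 in the edgeR fit each depended on 1 library. Those of RLP1 and RLP39 depended on the choice of test as well.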
